A study of Mus musculus with 54 samples.

Results

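Subdural CNS-associated macrophages (sdCAMs), which live in the leptomeninges and around vessels and had repopulated the brain after depletion, were compared 12 h after an injection of lipopolysaccharide (LPS) or of PBS. All sdCAM libraries of the reporter mice entered, 6 from 3 LPS mice (1, 5 and 7) and 6 from 3 PBS mice (174, 175 and 177), which made 12 of the 54 libraries in the series. Each mouse gave 1 library named tdT+ and 1 named tdT-, and both tdT states were pooled. All 6 mice were Ccr2CreERT2/CreERT2:R26tdT/tdT, received BLZ945, which blocks the CSF1 receptor and so removes brain macrophages, and then 2 mg tamoxifen at days 0, 2 and 4 after that treatment. Injection followed 8 weeks after the end of treatment. Tamoxifen switches on tdTomato (tdT) in cells that express Ccr2 at that time, so the label reads Ccr2 promoter activity in the weeks after depletion and not the origin of every cell. Cells had been sorted from whole brain without choroid plexus as CD206+ macrophages, both libraries of a mouse share that animal, and the LPS and PBS libraries carry the same batch number in the labels.

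LPS is a cell wall component of Gram-negative bacteria. It is sensed by TLR4 with its helpers CD14 and MD-2, and signals through MyD88 to NF-kappaB and through TRIF to interferon regulatory factors, so that cytokine, chemokine and interferon-stimulated genes are transcribed. Macrophages of the brain borders face blood and cerebrospinal fluid, take up debris and proteins by scavenger receptors, degrade them in lysosomes and present antigen on MHC class II.

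The pooling was chosen because the names of 2 LPS libraries, tdT- of mouse 1 and tdT+ of mouse 7, carried each other's sequencing index. Counts were therefore summed per mouse and tested over 3 mice a side with both columns as named, and again after exchange of the pair, whereas the values of 6 LPS against 6 PBS libraries do not depend on it. The LPS libraries held between 2060240 and 8751293 counts and the PBS libraries between 8652557 and 9850283. In LPS mice 1, 5 and 7 the libraries named tdT- held 4887903, 8751293 and 3211833 counts and those named tdT+ 2060240, 5467630 and 2755627. In PBS mice 174, 175 and 177 these were 9760076, 9850283 and 9182362 against 9023712, 8652557 and 9290262. The sums of LPS mice therefore lean to the named tdT- state, and the weight of the states differs between conditions. Serum amyloid Saa3 alone took 0.68 to 28.3% of the counts of LPS libraries and at most 0.00667% of those of PBS libraries, and the ribosomal RNA gene Rn18s took 0.152 to 1.06% against at most 0.0183%. Expression levels are given as counts divided by the library total times 1e6 and scaled by TMM (CPM), which corrects for such abundant transcripts, as the lowest, the median and the highest of 6 libraries. The median gene varied more after LPS, with an SD of log2(CPM + 1) of 0.896, than after PBS, with 0.477.

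The tdT+ library of LPS mouse 5 stood apart. Its summed level of 10 microglial markers was 11130 CPM, against 483 to 1345 CPM in the other LPS libraries and 4657 to 6063 CPM after PBS. These markers had a median level of 79.6% of that in the microglia (MG) library of the same mouse, against 1.43 to 13.6% in the other 11 libraries. Its sum of 8 sdCAM markers was 844 CPM, the lowest of all, against 5466 to 7927 CPM in the other LPS libraries and 8817 to 14600 CPM after PBS. The CD206+ macrophage label is thus borne out by the markers in 11 libraries and not in that one, and results that turn on it are given without it as well. As in any bulk measurement, fewer cells of a type and less RNA per cell cannot be told apart.

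**Figure D1:**
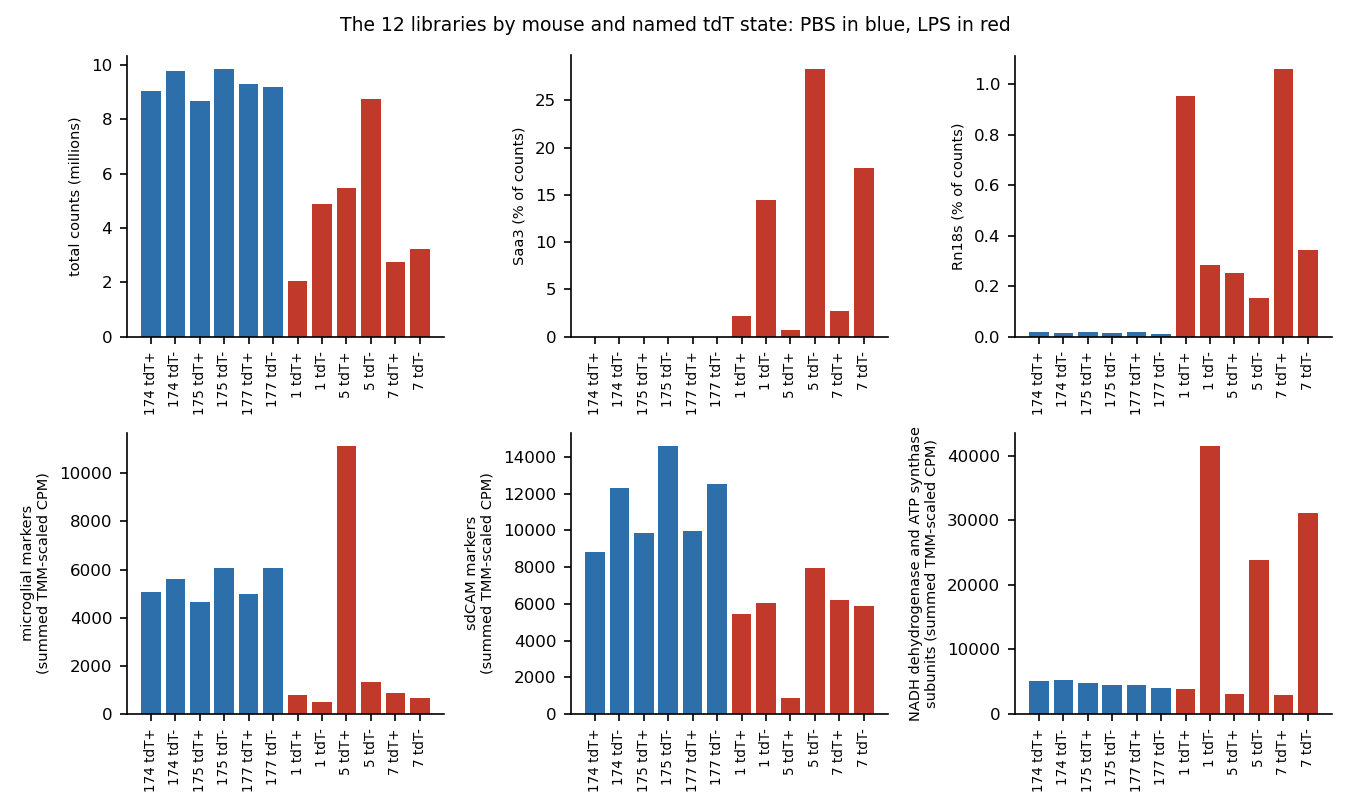
Total counts, shares of counts and summed CPM of marker lists in the 12 libraries, by mouse and named tdT state, with PBS bars in blue and LPS bars in red. Saa3 rose to between 0.68 and 28.3% of counts after LPS, the tdT+ library of LPS mouse 5 had 11130 CPM of microglial markers, and the subunits of NADH dehydrogenase and ATP synthase were high only in the LPS libraries named tdT-.

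LPS changed the expression of many genes in repopulated sdCAMs. Of 12548 genes tested among 33280 in the table, 1824 rose (14.5%) and 1331 fell (10.6%), by edgeR's quasi-likelihood test on the sums per mouse (a call requires a change beyond 1 on the log2 scale at an adjusted p below 0.05). After the exchange of the 2 library names, 1210 rose and 985 fell. The 6 LPS libraries lay above all 6 PBS libraries for 983 genes (7.83%) and below them for 985 (7.85%). The median log2 fold change of all genes was 0.06. Calls in the same direction under the names as given, under the exchange and with 12 separate libraries, together with no overlap of libraries, were found for 765 higher and 729 lower genes, from which the leading genes below were taken. Errors of log2 fold changes are standard errors over 3 mice a side, and the p-values measure the spread between these mice. The size fitted for a change from or to levels near 0 CPM depends on the prior count that the fit adds.

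**Figure D2:**
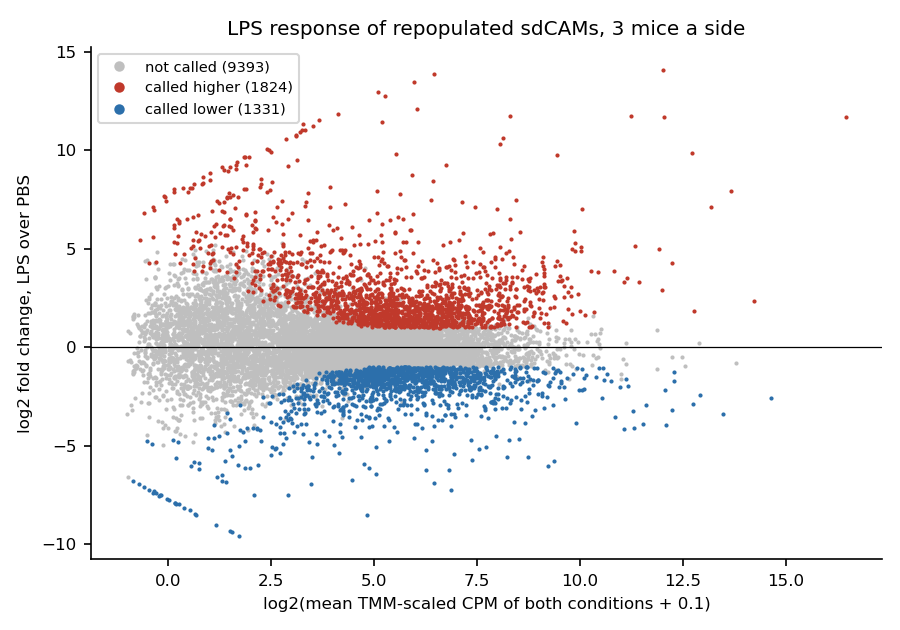
Log2 fold change, LPS over PBS, of the 12548 genes tested against log2 of their mean CPM, with 1824 genes called higher in red, 1331 called lower in blue and the others in grey. The diagonal rows at the left are genes at 0 in one condition, whose fitted size is set by the prior count.

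The 12 leading genes that rose were Lcn2, Zbtb16, Saa3, Dst, Ccl5, Il15ra, Tns1, Tnfrsf9, Edn1, Saa2, Fpr2 and Pirb. The 12 that fell were Gas6, Pxdc1, Cyp27a1, H2-DMb1, Gpr160, Hexa, Arhgap19, Selenop, Slc9a9, Igf1, Fam234a and Chp2. They span acute phase proteins, cytokine receptors and chemokines among the first set, and growth factors, lysosomal and antigen presentation genes among the second.

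**Figure D3:**
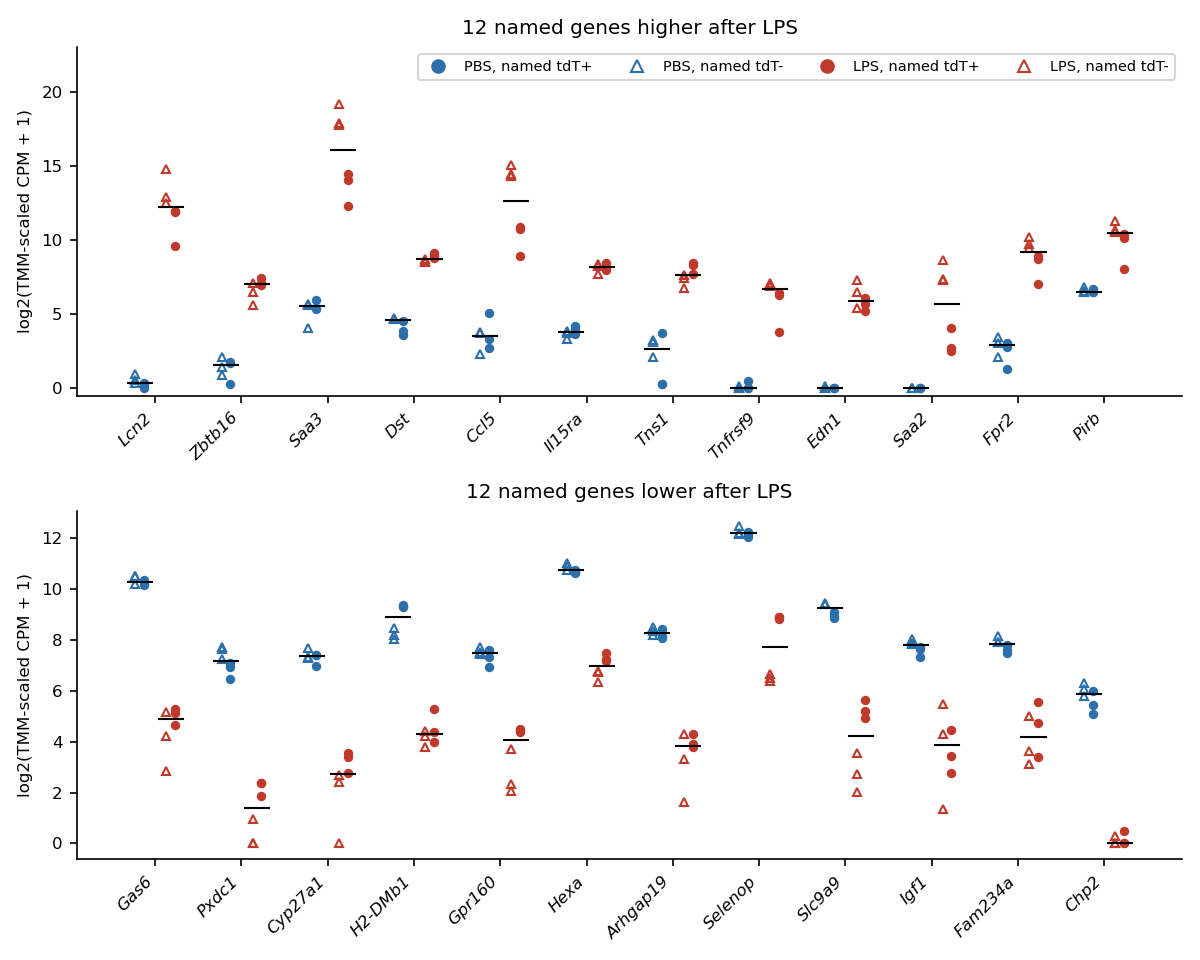
Log2(CPM + 1) of the 12 leading higher and 12 leading lower genes in each of the 12 libraries, with filled circles for libraries named tdT+, open triangles for tdT-, LPS in red, PBS in blue and bars at the medians. In every gene the 6 red points lie on one side of the 6 blue points, which the choice of these genes required.

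Gene lists are described by their counts, with no test of a list, beside 14.5% higher, 10.6% lower and a median of 0.06 over all genes. The lists and the promoter motifs were chosen with earlier results of these data known. The list furthest to the higher side was acute phase and antimicrobial proteins, at 17 of 21 (81%), and the list furthest to the lower side was the MHC class II pathway, at 9 of 12 (75%).

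**Figure D4:**
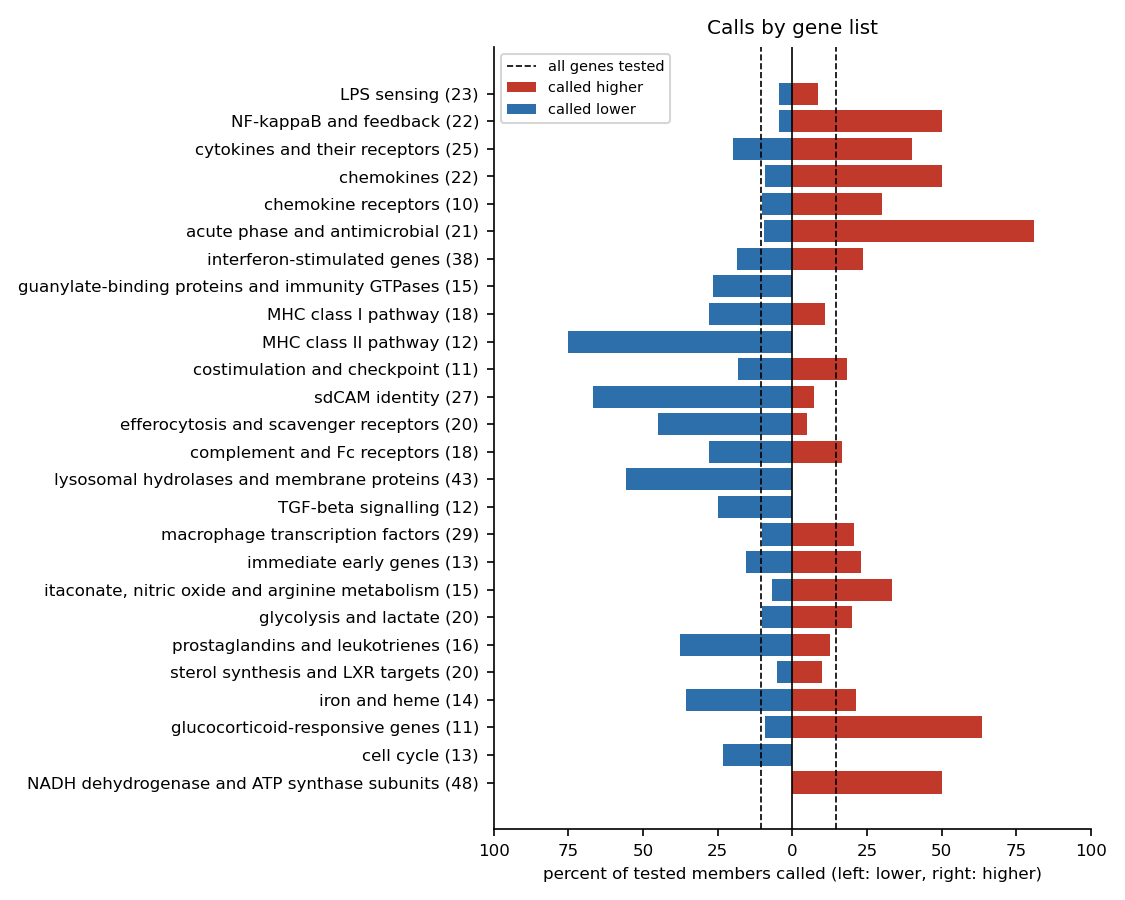
Percent of the tested members of each gene list called higher (red, to the right) or lower (blue, to the left), with the number tested in brackets and dashed lines at 14.5 and 10.6% for all genes. Acute phase proteins reach 81% higher, and the MHC class II pathway (75%), sdCAM identity (66.7%) and lysosomal lists (55.8%) extend furthest to the lower side.

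Acute phase and antimicrobial genes rose almost throughout. Of 21 tested, 17 rose, 2 fell and 2 did not pass, with a median log2 fold change of 7.11. Saa3 lay at 4878 to 572500 CPM after LPS (median 120100) and 15.7 to 60.5 CPM after PBS (median 45.2) (log2 fold change 11.69 ± 0.68, adjusted p = 4.62e-05). It encodes a serum amyloid that macrophages make. The liver-type relative Saa2 lay at 4.72 to 405 CPM after LPS (median 86.1) and at 0 in all 6 PBS libraries, at least 433-fold higher on average against a floor of 3 counts per library, or at least 240.2-fold without the tdT- library of LPS mouse 5. Reads of the Saa genes can be shared between near-identical copies, so the values of single members are uncertain to that extent. Lcn2 lay at 774 to 27650 CPM after LPS (median 4835) and 0 to 0.983 CPM after PBS (median 0.283) (log2 fold change 14.06 ± 0.69, adjusted p = 3.17e-05). Lcn2 is lipocalin 2, which binds bacterial siderophores. All 6 LPS libraries lay above all PBS libraries for Lcn2 and both Saa genes. Mt2 lay at 172 to 23800 CPM after LPS (median 3071) and 1.04 to 3.6 CPM after PBS (median 2.29) (log2 fold change 11.68 ± 0.96, adjusted p = 0.000196) and Mt1 lay at 399.8 to 51160 CPM after LPS (median 8698) and 87.3 to 149 CPM after PBS (median 109) (log2 fold change 7.11 ± 0.69, adjusted p = 0.000292). Both are metallothioneins, which bind zinc and copper. The ferroxidase ceruloplasmin, Cp, lay at 792 to 10140 CPM after LPS (median 3190) and 215 to 426 CPM after PBS (median 331) (log2 fold change 3.29 ± 0.32, adjusted p = 0.000279). Haptoglobin, Hp, lay at 44.4 to 302 CPM after LPS (median 218) and 0 to 27.1 CPM after PBS (median 0) (log2 fold change 5.20 ± 1.57, adjusted p = 0.0362). Hp lost its call without the tdT+ library of LPS mouse 5, LPS mouse 1, LPS mouse 7, PBS mouse 175 or PBS mouse 177 and after the exchange of names (log2 fold changes 4.59 to 5.66, adjusted p 0.0563 to 0.0896). Only the lysozymes Lyz1 and Lyz2 of the list fell. Lyz2 lay at 604 to 2295 CPM after LPS (median 2001) and 9584 to 15030 CPM after PBS (median 11740) (log2 fold change -2.88 ± 0.36, adjusted p = 0.000839).

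The promoter of Saa3 is shown because this gene took up to 28.3% of the counts of a library after LPS. The 250 bases before its start, from RefSeq on GRCm38.p6, hold the motif of C/EBP factors (TTGCNNAA, searched on both strands) at the letters in capitals.
Saa3 (chr7:46715677-46715926, minus strand): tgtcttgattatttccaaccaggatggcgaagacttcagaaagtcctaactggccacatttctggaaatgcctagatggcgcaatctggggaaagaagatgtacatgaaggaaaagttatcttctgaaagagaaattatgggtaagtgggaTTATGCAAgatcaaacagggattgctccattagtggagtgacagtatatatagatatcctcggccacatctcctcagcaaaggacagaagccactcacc
Motifs were counted in windows from 250 bases before to 50 bases after the start. Among the promoters of acute phase genes that could be matched, 11 of 18 held this motif (61.1%), against 1013 of the 9788 matched promoters of all genes tested (10.3%). The share was 11.4% among genes called higher and 14% among genes called lower. A match describes the letters only.

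Chemokines rose more than they fell, and those that attract T cells were among the largest. Of 22 tested, 11 rose, 2 fell and 9 did not pass, with a median log2 fold change of 1.62. Ccl5 lay at 489 to 34020 CPM after LPS (median 10990) and 3.87 to 32.5 CPM after PBS (median 10.4) (log2 fold change 9.84 ± 0.64, adjusted p = 8.09e-05). Ccl22 and Ccl17, ligands of CCR4, lay at 61.9 to 886 CPM after LPS (median 599) and 0 to 1.25 CPM after PBS (median 0) (log2 fold change 10.60 ± 0.89, adjusted p = 0.00021) and at 16.1 to 12620 CPM after LPS (median 2054) and 0 to 2.5 CPM after PBS (median 1.25) (log2 fold change 11.74 ± 1.05, adjusted p = 0.00025). With the mouse as a replicate block, Ccl17 lost its call (10.19, adjusted p = 0.118, and 10.17, adjusted p = 0.191, after the exchange). All 6 LPS libraries lay above all PBS libraries for these genes, although Ccl17 ranged widely among the LPS libraries. The neutrophil chemokine Cxcl2 lay at 56.03 to 1988 CPM after LPS (median 516) and 0 to 9.74 CPM after PBS (median 0.651) (log2 fold change 7.47 ± 0.80, adjusted p = 0.000422). Cxcl13 lay at 295 to 2848 CPM after LPS (median 942) and 0 to 6.97 CPM after PBS (median 0.142) (log2 fold change 9.78 ± 1.13, adjusted p = 0.000625). Cxcl13 attracts B cells, and its LPS and PBS libraries did not overlap. The interferon-inducible Cxcl9 lay at 36.7 to 2235 CPM after LPS (median 282) and 0 to 21.7 CPM after PBS (median 12.8) (log2 fold change 5.83 ± 0.89, adjusted p = 0.00186). Ccl6 and Ccl24 fell. Ccl24 lay at 3.28 to 164 CPM after LPS (median 32.5) and 45.8 to 186 CPM after PBS (median 114) (log2 fold change -1.57 ± 0.41, adjusted p = 0.0199), with overlapping libraries. Ccl24 lost its call without the tdT+ library of LPS mouse 5, PBS mouse 175 or PBS mouse 177 (log2 fold changes -1.63 to -0.58, adjusted p 0.0516 to 0.585). With the mouse as a replicate block, Ccl24 lost its call after the exchange (-2.24, adjusted p = 0.0557). Its call was also lost with 12 separate libraries (-1.17, adjusted p = 0.21) and with the tdT state as a covariate (-1.22, adjusted p = 0.111).

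Among cytokines and their receptors, 25 genes were tested, of which 10 rose, 5 fell and 10 did not pass, with a median log2 fold change of 0.41. The receptor chain Il15ra and its ligand Il15 moved in opposite directions. Il15ra lay at 211 to 354 CPM after LPS (median 294) and 8.91 to 17.1 CPM after PBS (median 13.1) (log2 fold change 4.35 ± 0.29, adjusted p = 8.09e-05), whereas Il15 lay at 0.924 to 13.9 CPM after LPS (median 6.31) and 22.96 to 51.8 CPM after PBS (median 34.5) (log2 fold change -2.57 ± 0.39, adjusted p = 0.00182). Neither gene overlapped between conditions. Tnfrsf9, which encodes the costimulatory receptor 4-1BB, lay at 12.7 to 133 CPM after LPS (median 102) and 0 to 0.4 CPM after PBS (median 0) (log2 fold change 9.80 ± 0.71, adjusted p = 0.00013). The granulocyte growth factor Csf3 lay at 8.0 to 206 CPM after LPS (median 39.95) and at 0 in all 6 PBS libraries, at least 264-fold higher on average against the floor of 3 counts per library, or at least 174.8-fold without the tdT- library of LPS mouse 5. Il1rn encodes the antagonist of the interleukin-1 receptor and lay at 313 to 654 CPM after LPS (median 502) and 0 to 11.5 CPM after PBS (median 2.3) (log2 fold change 7.03 ± 1.08, adjusted p = 0.00194). Interleukin-1 beta and interleukin-6 overlapped between conditions. Il1b lay at 3.48 to 60.5 CPM after LPS (median 23.8) and 3.66 to 12.7 CPM after PBS (median 7.74) (log2 fold change 1.77 ± 0.55, adjusted p = 0.0411), and Il6 lay at 0.309 to 26.2 CPM after LPS (median 13.2) and 0 to 1.34 CPM after PBS (median 0.242) (log2 fold change 4.67 ± 0.94, adjusted p = 0.00651). Il1b lost its call without the tdT+ library of LPS mouse 5, LPS mouse 5, LPS mouse 7, PBS mouse 174, PBS mouse 175 or PBS mouse 177 and after the exchange of names (log2 fold changes 1.04 to 2.11, adjusted p 0.0577 to 0.169). The call of Il1b was also lost with all libraries thinned to the smallest total (1.30, adjusted p = 0.147). Ebi3 lay at 45.9 to 903 CPM after LPS (median 223) and 55.4 to 92.8 CPM after PBS (median 72.7) (log2 fold change 1.81 ± 0.29, adjusted p = 0.00222). Ebi3 is a subunit of IL-27 and IL-35, and its libraries overlapped. The other genes that fell were Il10ra, Tgfb1, Ifngr1 and Il13ra1.

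Of 10 chemokine and formyl peptide receptors tested, 3 rose, 1 fell and 6 did not pass, with a median log2 fold change of -0.0038. The formyl peptide receptors Fpr2 and Fpr1 sense bacterial and mitochondrial peptides and lay at 131 to 1153 CPM after LPS (median 591.3) and 1.46 to 10.1 CPM after PBS (median 6.54) (log2 fold change 6.49 ± 0.52, adjusted p = 0.000196) and at 198 to 801 CPM after LPS (median 543) and 11.7 to 105 CPM after PBS (median 44.3) (log2 fold change 3.24 ± 0.33, adjusted p = 0.000363). Ccr7, the receptor that guides cells to lymph nodes, lay at 18.5 to 165 CPM after LPS (median 109) and 0 to 13.9 CPM after PBS (median 0) (log2 fold change 4.45 ± 1.07, adjusted p = 0.0146). Ccr7 lost its call without PBS mouse 175 (4.57, adjusted p = 0.0524). Ccr2, whose locus drives the reporter and which in these homozygous mice carries the CreERT2 insertion in both copies, lay at 4.31 to 54.01 CPM after LPS (median 14.8) and 131 to 259.9 CPM after PBS (median 197) (log2 fold change -3.41 ± 0.55, adjusted p = 0.00233). All 6 LPS libraries lay below the PBS libraries. The fractalkine receptor Cx3cr1 lay at 100.6 to 1585 CPM after LPS (median 162) and 999 to 1534 CPM after PBS (median 1318) (log2 fold change -1.63 ± 0.74, adjusted p = 0.134), and its highest LPS value came from the tdT+ library of mouse 5.

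The genes that sense LPS moved little as a group. Of 23 tested, 2 rose, 1 fell and 20 did not pass, with a median log2 fold change of 0.12. The receptor itself fell, with no overlap of libraries. Tlr4 lay at 32.8 to 125 CPM after LPS (median 64.4) and 237 to 351 CPM after PBS (median 262) (log2 fold change -1.92 ± 0.27, adjusted p = 0.00133). Tlr9, a sensor of unmethylated DNA, and Tab2, an adaptor of the kinase TAK1, rose. Tlr9 lay at 1.16 to 50.5 CPM after LPS (median 12.3) and 0 to 1.52 CPM after PBS (median 1.01) (log2 fold change 4.42 ± 0.74, adjusted p = 0.00283), with overlap, and Tab2 lay at 67.2 to 209.5 CPM after LPS (median 145) and 21.5 to 59.6 CPM after PBS (median 46) (log2 fold change 1.60 ± 0.37, adjusted p = 0.0126), without overlap. Tab2 lost its call without LPS mouse 7, PBS mouse 174 or PBS mouse 177 (log2 fold changes 1.39 to 1.58, adjusted p 0.0542 to 0.0592). The members without a call and with the highest mean CPM were Tlr2, at 286 to 2057 CPM after LPS (median 352) and 279 to 370.2 CPM after PBS (median 314) (log2 fold change 1.08 ± 0.51, adjusted p = 0.147), and Cd14, at 410.5 to 1763 CPM after LPS (median 518) and 525 to 699 CPM after PBS (median 588) (log2 fold change 0.31 ± 0.45, adjusted p = 0.648). The sign for Cd14 turned without LPS mouse 5, to -0.50.

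Members of the NF-kappaB family and its feedback inhibitors rose in 11 of 22 cases, as Nfkb1, Rel, Nfkbia, Nfkbiz, Tnfaip3, Tnip1, Tnip3, Irak3, Socs3, Zc3h12a and Dusp1. Only Cd83 fell, and the median log2 fold change was 1.13. The inhibitors of signalling were the ones with the smallest p. Tnfaip3 encodes the deubiquitinase A20 and lay at 175.1 to 331 CPM after LPS (median 262) and 0.418 to 40.6 CPM after PBS (median 19.3) (log2 fold change 3.62 ± 0.32, adjusted p = 0.00025). Socs3, an inhibitor of STAT3 signalling, lay at 259 to 515 CPM after LPS (median 344) and 4.78 to 35.7 CPM after PBS (median 19.6) (log2 fold change 4.25 ± 0.53, adjusted p = 0.000895). Irak3, a brake on MyD88 signalling, lay at 67.97 to 194 CPM after LPS (median 151) and 10.3 to 38.2 CPM after PBS (median 25.8) (log2 fold change 2.35 ± 0.30, adjusted p = 0.00102). Nfkbia encodes the inhibitor IkB alpha, and its libraries did not overlap either. Nfkbia lay at 729 to 3397 CPM after LPS (median 1018) and 124 to 266 CPM after PBS (median 196) (log2 fold change 2.56 ± 0.38, adjusted p = 0.00176). The RNase regnase-1, encoded by Zc3h12a, lay at 27.8 to 58.6 CPM after LPS (median 42.01) and 2.9 to 13.2 CPM after PBS (median 5.81) (log2 fold change 2.63 ± 0.41, adjusted p = 0.00205), and the MAP kinase phosphatase Dusp1 at 484 to 1211 CPM after LPS (median 780.2) and 45.9 to 193 CPM after PBS (median 64.8) (log2 fold change 2.93 ± 0.52, adjusted p = 0.00361). Rela, the activating subunit, missed the fold limit. Rela lay at 35.8 to 147 CPM after LPS (median 78.3) and 113 to 218 CPM after PBS (median 152) (log2 fold change -0.98 ± 0.29, adjusted p = 0.032). Zfp36, which destabilises cytokine mRNAs, lay at 255 to 632 CPM after LPS (median 341) and 255 to 773 CPM after PBS (median 430.3) (log2 fold change -0.26 ± 0.36, adjusted p = 0.633), and its sign turned without PBS mouse 174, to 0.11. Cd83 lay at 25.5 to 216 CPM after LPS (median 41.5) and 236 to 459 CPM after PBS (median 347) (log2 fold change -2.20 ± 0.55, adjusted p = 0.0169). Cd83 lost its call without LPS mouse 1 or PBS mouse 174 (log2 fold changes -2.06 to -2.03, adjusted p 0.0513 to 0.0528).

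The promoters of Nfkbia and Cxcl2 are shown as targets of NF-kappaB whose 6 LPS libraries all lay above the PBS libraries. Capitals mark matches to the kB consensus on either strand, of which Cxcl2 holds an overlapping pair.
Nfkbia (chr12:55492648-55492897, minus strand): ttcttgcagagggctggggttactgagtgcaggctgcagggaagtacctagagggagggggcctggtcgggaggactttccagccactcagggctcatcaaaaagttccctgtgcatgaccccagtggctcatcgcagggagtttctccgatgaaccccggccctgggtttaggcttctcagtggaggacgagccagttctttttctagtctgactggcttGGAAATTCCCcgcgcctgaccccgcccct
Cxcl2 (chr5:90903649-90903898, plus strand): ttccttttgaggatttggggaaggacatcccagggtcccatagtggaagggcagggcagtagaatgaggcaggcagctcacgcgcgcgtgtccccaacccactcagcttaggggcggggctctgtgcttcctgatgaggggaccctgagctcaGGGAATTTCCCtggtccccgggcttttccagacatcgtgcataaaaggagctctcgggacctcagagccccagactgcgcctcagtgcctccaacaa
The consensus was found in 9 of 18 matched promoters of the NF-kappaB list (50%) and in 5 of 16 of the chemokine list (31.2%), against 6.34% of all matched promoters. Among genes called higher the share was 7.61% and among genes called lower 6.29%.

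Interferon-stimulated genes moved both ways. Of 38 tested, 9 rose, 7 fell and 22 did not pass, with a median log2 fold change of 0.45. After the exchange, 4 rose and 4 fell. Those that rose were Isg15, Mx1, Mx2, Ifih1, Zbp1, Parp14, Herc6, Ifitm3 and Ifitm1, and those that fell were Ifit2, Ifit3b, Irf1, Usp18, Ifi47, Cmpk2 and Sp100. The antiviral membrane protein Ifitm3 lay at 319 to 19420 CPM after LPS (median 5632) and 452 to 1398 CPM after PBS (median 721) (log2 fold change 2.89 ± 0.43, adjusted p = 0.00176). It overlapped between conditions, and in the libraries named tdT+ alone its change was -0.17. Ifitm3 lost its call with the mouse as a replicate block (1.997, adjusted p = 0.0548, and 1.99, adjusted p = 0.106, after the exchange) and with the tdT state as a covariate (2.04, adjusted p = 0.0968). Parp14, an ADP-ribosyltransferase, lay at 135 to 699 CPM after LPS (median 244) and 58.2 to 133 CPM after PBS (median 84.7) (log2 fold change 1.66 ± 0.37, adjusted p = 0.0101), and the antiviral GTPase Mx2 at 21.8 to 57.1 CPM after LPS (median 35.6) and 1.56 to 14.1 CPM after PBS (median 7.12) (log2 fold change 2.17 ± 0.45, adjusted p = 0.00779). The transcription factor Irf1 was below the PBS libraries in all 6 LPS libraries. Irf1 lay at 21.2 to 87.9 CPM after LPS (median 62.8) and 100.9 to 196 CPM after PBS (median 117) (log2 fold change -1.13 ± 0.25, adjusted p = 0.0104). Ifit3b lay at 1.85 to 24.5 CPM after LPS (median 6.45) and 19.1 to 115 CPM after PBS (median 45.6) (log2 fold change -2.74 ± 0.56, adjusted p = 0.00695), with overlap. Parp14 lost its call without PBS mouse 175 (1.49, adjusted p = 0.0549). Irf1 lost its call without PBS mouse 174 (-0.98, adjusted p = 0.0533). Ifit3b lost its call without the tdT+ library of LPS mouse 5 (-2.05, adjusted p = 0.0799).

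No guanylate-binding protein or immunity-related GTPase rose. These proteins attack vacuoles of intracellular microbes and are classical targets of interferon-gamma. Of 15 tested, 0 rose, 4 fell and 11 did not pass, with a median log2 fold change of -0.99. The 4 that fell were Gbp3, Irgm2, Igtp and Tgtp2, and none of them overlapped between conditions. Tgtp2 lay at 3.02 to 10.4 CPM after LPS (median 6.6) and 50.1 to 114 CPM after PBS (median 54.1) (log2 fold change -3.42 ± 0.37, adjusted p = 0.000467). Irgm2 lay at 9.24 to 81.6 CPM after LPS (median 33.1) and 90.8 to 156 CPM after PBS (median 126) (log2 fold change -1.76 ± 0.31, adjusted p = 0.0034), and Igtp lay at 49.2 to 95.5 CPM after LPS (median 61.2) and 113 to 196 CPM after PBS (median 139) (log2 fold change -1.19 ± 0.26, adjusted p = 0.00963). Tgtp2 has a near-identical neighbour, Tgtp1, so its counts are uncertain to that extent. Gbp7 lay at 157 to 285 CPM after LPS (median 176) and 177.3 to 253 CPM after PBS (median 212) (log2 fold change -0.22 ± 0.27, adjusted p = 0.586). The interferon response element ISRE (GAAANNGAA, both strands) stood in all 9 matched promoters of this list and in 14 of 28 of the interferon-stimulated genes (50%), against 9.06% of all promoters.

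In the MHC class I pathway, 5 of 18 tested genes fell, namely H2-D1, Tap2, Tapbp, H2-T23 and H2-M3. Psme1 and Nlrc5 rose, and the median log2 fold change was -0.30. H2-D1 lay at 617 to 1692 CPM after LPS (median 1195) and 2939 to 3610 CPM after PBS (median 3317) (log2 fold change -1.60 ± 0.28, adjusted p = 0.00354). H2-T23, the mouse Qa-1 molecule, lay at 75.0 to 126 CPM after LPS (median 106) and 239 to 404 CPM after PBS (median 287) (log2 fold change -1.67 ± 0.25, adjusted p = 0.00182), and Tap2, a subunit of the peptide transporter, at 37.3 to 78.98 CPM after LPS (median 51.5) and 103 to 168 CPM after PBS (median 141) (log2 fold change -1.44 ± 0.25, adjusted p = 0.00353). All 6 LPS libraries were below all PBS libraries for these genes. The other classical heavy chain did not follow. H2-K1 lay at 964 to 1940 CPM after LPS (median 1471) and 1164 to 1541 CPM after PBS (median 1454) (log2 fold change -0.06 ± 0.28, adjusted p = 0.899), and its sign turned under 9 alternatives. The light chain B2m lay at 3273 to 33080 CPM after LPS (median 4386) and 5298 to 8007 CPM after PBS (median 6091) (log2 fold change 0.20 ± 0.53, adjusted p = 0.814), with 33080 CPM in the tdT- library of LPS mouse 5 against at most 4974 CPM in the other LPS libraries, and its change was -0.79 without that mouse. Reads of H2 heavy chain genes can be shared between similar family members.

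MHC class II genes fell together. Of 12 tested, 9 fell and none rose, with a median log2 fold change of -3.92, and all 9 fell without overlap and also after the exchange and with separate libraries. H2-DMb1 lay at 12.9 to 38.6 CPM after LPS (median 18.9) and 260.4 to 668 CPM after PBS (median 494) (log2 fold change -4.51 ± 0.32, adjusted p = 0.00013), and H2-DMa lay at 12.6 to 69.5 CPM after LPS (median 21.6) and 403 to 1054 CPM after PBS (median 668) (log2 fold change -4.66 ± 0.51, adjusted p = 0.000463). This pair forms the H2-M chaperone that loads peptides. The chains of the antigen-presenting molecules themselves followed. H2-Aa lay at 95.9 to 1069 CPM after LPS (median 338) and 2809 to 8413 CPM after PBS (median 5334) (log2 fold change -3.87 ± 0.56, adjusted p = 0.00159). H2-Ab1 lay at 139.5 to 1591 CPM after LPS (median 338) and 4467 to 11860 CPM after PBS (median 8001) (log2 fold change -3.96 ± 0.64, adjusted p = 0.00233). H2-Eb1 lay at 57.1 to 441 CPM after LPS (median 211) and 2161 to 6178 CPM after PBS (median 3921) (log2 fold change -4.15 ± 0.50, adjusted p = 0.000719). The invariant chain Cd74 lay at 804 to 3790 CPM after LPS (median 1668) and 11840 to 31590 CPM after PBS (median 19620) (log2 fold change -3.39 ± 0.50, adjusted p = 0.00161). Ciita, the master activator of these genes, fell to near 0. Ciita lay at 0 to 10.5 CPM after LPS (median 0.193) and 31.4 to 106 CPM after PBS (median 56.6) (log2 fold change -5.06 ± 1.12, adjusted p = 0.00973). Its highest LPS value, 10.49 CPM, came from the tdT- library of mouse 1, which also held the highest LPS values of H2-Aa and H2-Ab1. The invariant chain protease cathepsin S, Ctss, lay at 2217 to 7102 CPM after LPS (median 3349) and 4884 to 6149 CPM after PBS (median 5572) (log2 fold change -0.50 ± 0.34, adjusted p = 0.315).

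The promoters of H2-DMb1 and H2-Eb1 are shown as those of the members that hold CTGATGATG, in capitals. These letters, part of the X box of class II genes, were chosen after the promoters had been read.
H2-DMb1 (chr17:34152941-34153190, plus strand): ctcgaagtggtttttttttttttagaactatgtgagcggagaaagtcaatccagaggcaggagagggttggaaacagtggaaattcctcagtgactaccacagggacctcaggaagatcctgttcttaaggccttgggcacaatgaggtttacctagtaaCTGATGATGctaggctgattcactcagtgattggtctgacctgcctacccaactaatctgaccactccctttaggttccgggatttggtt
H2-Eb1 (chr17:34305617-34305866, plus strand): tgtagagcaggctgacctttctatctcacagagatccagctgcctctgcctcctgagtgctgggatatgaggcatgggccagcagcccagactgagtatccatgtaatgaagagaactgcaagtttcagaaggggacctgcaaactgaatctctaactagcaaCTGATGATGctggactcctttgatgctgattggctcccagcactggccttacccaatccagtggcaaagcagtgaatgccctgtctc
These letters were found in 2 of 9 matched promoters of the list and in 20 of 9788 promoters of all genes (0.204%). They stood in 3 promoters of genes called lower (0.29%) and in 0 of 1420 of genes called higher. The GAS element (TTCNNNGAA) was present in 8.32% of all promoters, in 8.38% of those called higher and in 7.07% of those called lower.

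Among costimulatory and checkpoint molecules, 2 of 11 tested rose and 2 fell, with a median of -0.10. Cd274 lay at 27.2 to 71.9 CPM after LPS (median 60.98) and 5.37 to 24.6 CPM after PBS (median 16.4) (log2 fold change 1.73 ± 0.32, adjusted p = 0.00439). Cd274 encodes PD-L1, and Tnfsf9, the ligand of Tnfrsf9, was the other that rose. The inhibitory receptors Sirpa and Cd200r1 fell without overlap. Sirpa lay at 152 to 526 CPM after LPS (median 312) and 1030 to 1295 CPM after PBS (median 1128) (log2 fold change -1.82 ± 0.28, adjusted p = 0.00199). Cd200r1 lay at 11.4 to 32.7 CPM after LPS (median 23.1) and 71.04 to 137 CPM after PBS (median 100.2) (log2 fold change -2.27 ± 0.34, adjusted p = 0.00171).

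Genes that identify sdCAMs fell in most cases. Of 27 tested, 2 rose, 18 fell and 7 did not pass, with a median log2 fold change of -1.98. Several members were named by the study from related data, so their direction here is not independent evidence. Gas6, the ligand of the receptors Axl and Mertk, was the lower gene with the smallest p. Gas6 lay at 6.17 to 37.9 CPM after LPS (median 29.1) and 1133 to 1472 CPM after PBS (median 1247) (log2 fold change -5.77 ± 0.33, adjusted p = 4.62e-05). The selenium carrier Selenop lay at 84.0 to 477 CPM after LPS (median 275) and 4237 to 5677 CPM after PBS (median 4697) (log2 fold change -4.11 ± 0.32, adjusted p = 0.000172), and the growth factor Igf1 at 1.54 to 43.6 CPM after LPS (median 14.4) and 162 to 264 CPM after PBS (median 222) (log2 fold change -4.01 ± 0.33, adjusted p = 0.000196). The lectin receptors Clec4n and Cd209f lay at 5.77 to 76.2 CPM after LPS (median 24.6) and 178 to 404 CPM after PBS (median 257) (log2 fold change -3.44 ± 0.35, adjusted p = 0.000353) and at 0 to 15.2 CPM after LPS (median 6.84) and 89.3 to 609 CPM after PBS (median 325) (log2 fold change -5.70 ± 0.61, adjusted p = 0.000422). Nrp1 lay at 43.6 to 203 CPM after LPS (median 55.7) and 649.7 to 1063 CPM after PBS (median 894) (log2 fold change -3.17 ± 0.39, adjusted p = 0.000806). The libraries of these 6 genes did not overlap. Apoe, the lipoprotein component, lay at 1302 to 17050 CPM after LPS (median 7812) and 39100 to 46300 CPM after PBS (median 42660) (log2 fold change -2.599 ± 0.34, adjusted p = 0.00108). Mrc1 lay at 269 to 1829 CPM after LPS (median 808) and 2875 to 4582 CPM after PBS (median 3508) (log2 fold change -1.98 ± 0.44, adjusted p = 0.0106), and Mrc1 encodes CD206, on which the cells had been sorted. Lyve1, the hyaluronan receptor, lay at 21.8 to 334 CPM after LPS (median 171) and 253 to 1444 CPM after PBS (median 553) (log2 fold change -2.13 ± 0.40, adjusted p = 0.00471). In the libraries named tdT+ alone, Mrc1 and Lyve1 were not called (-1.33, adjusted p = 0.155, and -0.42, adjusted p = 0.755). Lyve1 also lost its call with the tdT state as a covariate (-1.68, adjusted p = 0.0607).

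The pattern was not uniform among sdCAM genes. The transcription factor Maf rose. Maf lay at 358 to 3238 CPM after LPS (median 1546) and 438 to 582 CPM after PBS (median 503) (log2 fold change 1.62 ± 0.51, adjusted p = 0.0431), with overlap. Maf lost its call without LPS mouse 1, LPS mouse 7, PBS mouse 174, PBS mouse 175 or PBS mouse 177 and after the exchange of names (log2 fold changes 1.10 to 1.70, adjusted p 0.0904 to 0.153). F13a1, a clotting factor subunit, lay at 363 to 2513 CPM after LPS (median 1744) and 1953 to 3330 CPM after PBS (median 2780) (log2 fold change -0.84 ± 0.43, adjusted p = 0.182). Ms4a6c lay at 723 to 7973 CPM after LPS (median 840.4) and 470.5 to 694 CPM after PBS (median 507) (log2 fold change 1.57 ± 0.56, adjusted p = 0.0648), and its 6 LPS libraries were all above the PBS libraries although the test did not call it.

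Receptors for uptake of debris and dying cells fell more often than they rose. Of 20 tested, 1 rose, 9 fell and 10 did not pass, with a median log2 fold change of -1.21. The fatty acid and scavenger receptor Cd36 lay at 2.08 to 34.4 CPM after LPS (median 8.13) and 299 to 634 CPM after PBS (median 396) (log2 fold change -5.04 ± 0.50, adjusted p = 0.000325), and the beta-glucan receptor Clec7a at 0 to 3.93 CPM after LPS (median 1.22) and 104 to 294 CPM after PBS (median 161) (log2 fold change -6.89 ± 0.69, adjusted p = 0.000345). Trem2, a lipid receptor, followed. Trem2 lay at 33.3 to 187 CPM after LPS (median 77.6) and 456 to 629.8 CPM after PBS (median 562) (log2 fold change -2.67 ± 0.45, adjusted p = 0.00283). Cd68 lay at 310.5 to 1210 CPM after LPS (median 545) and 1353 to 1805 CPM after PBS (median 1586) (log2 fold change -1.58 ± 0.30, adjusted p = 0.00496). Cd68 lost its call without the tdT+ library of LPS mouse 5 (-1.10, adjusted p = 0.105). Msr1, the class A scavenger receptor, went the other way. Msr1 lay at 879.7 to 2310 CPM after LPS (median 1599) and 318 to 489.7 CPM after PBS (median 418) (log2 fold change 1.86 ± 0.29, adjusted p = 0.00195). Mertk lay at 130.2 to 445 CPM after LPS (median 276) and 129 to 254 CPM after PBS (median 186) (log2 fold change 0.55 ± 0.30, adjusted p = 0.212), and in the libraries named tdT- alone its change was -0.35.

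Among complement and Fc receptor genes, 18 were tested, of which 3 rose, 5 fell and 10 did not pass, with a median log2 fold change of -0.996. The activating Fc receptor Fcgr4 and the complement receptor chain Itgam rose without overlap. Fcgr4 lay at 339 to 827 CPM after LPS (median 678) and 28.5 to 83.7 CPM after PBS (median 51.4) (log2 fold change 3.57 ± 0.34, adjusted p = 0.000275). Itgam lay at 591.4 to 1564 CPM after LPS (median 1203) and 161 to 251 CPM after PBS (median 181) (log2 fold change 2.48 ± 0.30, adjusted p = 0.000806). The chains of the complement initiator C1q were lower after LPS in most libraries. C1qc lay at 1742 to 5837 CPM after LPS (median 1790) and 6867 to 7811 CPM after PBS (median 7465) (log2 fold change -1.70 ± 0.39, adjusted p = 0.0114). C1qa lay at 1607 to 5161 CPM after LPS (median 1836) and 4708 to 5124 CPM after PBS (median 4915) (log2 fold change -1.08 ± 0.39, adjusted p = 0.0646), which missed the call. C1qc lost its call without the tdT+ library of LPS mouse 5 or PBS mouse 177 (log2 fold changes -1.72 to -1.22, adjusted p 0.0511 to 0.137).

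Lysosomal genes were lower after LPS or without a call. Of 43 tested, 24 fell, none rose and 19 did not pass, with a median log2 fold change of -1.40, and for 23 the 6 LPS libraries lay below all PBS libraries. The fall also held after the exchange and with separate libraries for 21. Hexa, the alpha chain of beta-hexosaminidase, was called with the smallest p. Hexa lay at 79.9 to 177.4 CPM after LPS (median 126) and 1598 to 2083 CPM after PBS (median 1739) (log2 fold change -3.86 ± 0.29, adjusted p = 0.000134). The lipase Lipa and the galactosidase Glb1 lay at 14.5 to 106 CPM after LPS (median 64.1) and 241 to 363 CPM after PBS (median 318) (log2 fold change -2.39 ± 0.26, adjusted p = 0.000429) and at 16.4 to 50.7 CPM after LPS (median 28.6) and 124 to 201 CPM after PBS (median 134) (log2 fold change -2.31 ± 0.25, adjusted p = 0.000458). The mannosidase Man2b1 and prosaposin, Psap, the activator of sphingolipid hydrolases, followed. Man2b1 lay at 76.9 to 342 CPM after LPS (median 168) and 693 to 1315 CPM after PBS (median 1037) (log2 fold change -2.53 ± 0.31, adjusted p = 0.000826). Psap lay at 201 to 787 CPM after LPS (median 404) and 2084 to 3010 CPM after PBS (median 2461) (log2 fold change -2.57 ± 0.33, adjusted p = 0.000929). Tfeb, the transcription factor that drives lysosomal genes, lay at 2.54 to 27.7 CPM after LPS (median 5.53) and 26.9 to 71.1 CPM after PBS (median 46.5) (log2 fold change -2.10 ± 0.54, adjusted p = 0.0194), with overlap. Tfeb lost its call without LPS mouse 7, PBS mouse 174 or PBS mouse 175 (log2 fold changes -2.23 to -1.99, adjusted p 0.0524 to 0.0627). The proteases Ctsd and Ctsz were not called. Ctsd lay at 399 to 3147 CPM after LPS (median 601) and 2264 to 4056 CPM after PBS (median 3145) (log2 fold change -1.63 ± 0.56, adjusted p = 0.0555), and its highest LPS value came from the tdT+ library of mouse 5. Ctsz lay at 1288 to 1868 CPM after LPS (median 1545) and 1207 to 1394 CPM after PBS (median 1313) (log2 fold change 0.15 ± 0.27, adjusted p = 0.712). The E-box CACGTG, the core of the element that Tfeb binds, was found in 13 of 35 matched lysosomal promoters (37.1%), against 11.7% of all promoters and 11.8% of those called higher or lower.

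Of 15 genes of itaconate, nitric oxide and arginine metabolism and oxygen radical production, 5 rose, 1 fell and 9 did not pass, with a median log2 fold change of 0.72. Acod1, which makes itaconate, lay at 79.4 to 118 CPM after LPS (median 100.5) and 0 to 2.28 CPM after PBS (median 0) (log2 fold change 7.79 ± 1.13, adjusted p = 0.00152), and its 6 LPS libraries stayed within a narrow range. The mitochondrial superoxide dismutase Sod2 lay at 378 to 7909 CPM after LPS (median 973) and 34.5 to 58.5 CPM after PBS (median 45.8) (log2 fold change 5.09 ± 0.55, adjusted p = 0.00044). The cystine importer Slc7a11 lay at 60.8 to 229 CPM after LPS (median 89.9) and 0.0893 to 8.78 CPM after PBS (median 0.493) (log2 fold change 5.97 ± 0.96, adjusted p = 0.00233). Cybb, the core of the phagocyte oxidase, missed the fold limit. Cybb lay at 1084 to 2535 CPM after LPS (median 2067) and 764 to 1119 CPM after PBS (median 920.2) (log2 fold change 0.94 ± 0.30, adjusted p = 0.0445). Nos2 was not tested because of low counts.

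Of 20 genes of glycolysis and lactate export, 4 rose, 2 fell and 14 did not pass, with a median log2 fold change of 0.17. Hexokinase 2 rose and hexokinases 1 and 3 fell. Hk2 lay at 176 to 4075 CPM after LPS (median 1070) and 22.2 to 95.9 CPM after PBS (median 45.4) (log2 fold change 4.99 ± 0.82, adjusted p = 0.00267). Hk3 lay at 20.1 to 45.6 CPM after LPS (median 40.9) and 140 to 201 CPM after PBS (median 150) (log2 fold change -2.33 ± 0.27, adjusted p = 0.000565). Pfkfb3, which makes the activator of phosphofructokinase, lay at 367 to 852 CPM after LPS (median 590.2) and 15.4 to 73.0 CPM after PBS (median 51.7) (log2 fold change 3.56 ± 0.36, adjusted p = 0.000345). These genes did not overlap between conditions.

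Subunits of NADH dehydrogenase and ATP synthase rose in 24 of 48 cases with none lower and a median of 1.15, but this rested on the libraries named tdT-. For 1 of the 48 the LPS libraries lay above all PBS libraries. After the exchange 2 rose. In the libraries named tdT- alone 30 rose, and in those named tdT+ alone 1 rose and 9 fell. Ndufs6 lay at 20.5 to 1361 CPM after LPS (median 302) and 39.1 to 66.99 CPM after PBS (median 44.5) (log2 fold change 3.15 ± 0.45, adjusted p = 0.00144). Atp5mk lay at 23.2 to 927 CPM after LPS (median 305) and 26.8 to 51.1 CPM after PBS (median 40.2) (log2 fold change 3.11 ± 0.37, adjusted p = 0.000734). In the libraries named tdT+ alone these changes were -0.85 and -0.72. With the mouse as a replicate block neither was called (1.65, adjusted p = 0.134, and 1.75, adjusted p = 0.115), nor after the exchange (3.21, adjusted p = 0.0612, and 3.16, adjusted p = 0.0546). Neither was called with the tdT state as a covariate (1.80, adjusted p = 0.189, and 1.86, adjusted p = 0.152). The catalytic subunit Atp5f1b lay at 321 to 492 CPM after LPS (median 452) and 446 to 551 CPM after PBS (median 487) (log2 fold change -0.29 ± 0.25, adjusted p = 0.427). Many of these genes have processed pseudogenes that can share reads.

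Genes of prostaglandin and leukotriene synthesis fell more than they rose. Of 16 tested, 2 rose, 6 fell and 8 did not pass, with a median log2 fold change of -0.58. Ptges, the inducible prostaglandin E synthase, and the receptor Ptger2 rose. Ptges lay at 17.8 to 44.4 CPM after LPS (median 32.4) and 0 to 0.912 CPM after PBS (median 0.423) (log2 fold change 5.96 ± 0.83, adjusted p = 0.00133). The prostaglandin-degrading enzyme Hpgd fell. Hpgd lay at 3.45 to 51.6 CPM after LPS (median 9.38) and 675 to 1060 CPM after PBS (median 817) (log2 fold change -5.56 ± 0.72, adjusted p = 0.00101). The thromboxane synthase Tbxas1 lay at 25.4 to 65.7 CPM after LPS (median 48.4) and 286 to 470.5 CPM after PBS (median 351) (log2 fold change -2.99 ± 0.28, adjusted p = 0.000275), and the leukotriene C4 synthase Ltc4s at 2.71 to 62.1 CPM after LPS (median 33.1) and 106 to 193 CPM after PBS (median 154) (log2 fold change -2.32 ± 0.40, adjusted p = 0.00332). No library overlapped for these genes.

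Of 14 genes of iron and heme handling, 3 rose, 5 fell and 6 did not pass, with a median log2 fold change of -0.50. The iron exporter ferroportin, Slc40a1, and the biliverdin reductase Blvrb fell without overlap. Slc40a1 lay at 0.309 to 43.6 CPM after LPS (median 2.78) and 72.3 to 802 CPM after PBS (median 326) (log2 fold change -5.16 ± 0.96, adjusted p = 0.00464). Blvrb lay at 8.9 to 173 CPM after LPS (median 38.1) and 246 to 301 CPM after PBS (median 273) (log2 fold change -2.42 ± 0.32, adjusted p = 0.00111). Blvrb lost its call without the tdT+ library of LPS mouse 5 (-1.62, adjusted p = 0.0791). The transferrin receptor Tfrc lay at 11.4 to 93.2 CPM after LPS (median 60.8) and 0.4 to 28.4 CPM after PBS (median 13.3) (log2 fold change 1.96 ± 0.42, adjusted p = 0.00902), and its libraries overlapped. Tfrc lost its call with the tdT state as a covariate (2.03, adjusted p = 0.0583). The ferritin light chain Ftl1 lay at 269 to 5690 CPM after LPS (median 549) and 2377 to 3097 CPM after PBS (median 2711) (log2 fold change -1.36 ± 0.53, adjusted p = 0.0856), with its highest LPS value in the tdT- library of mouse 5. Of 20 genes of sterol synthesis and LXR targets, 2 rose, 1 fell and 17 did not pass, with a median log2 fold change of -0.33. Cyp51 lay at 20.7 to 33.5 CPM after LPS (median 26.2) and 61.9 to 91.2 CPM after PBS (median 82.9) (log2 fold change -1.64 ± 0.25, adjusted p = 0.00197), and the cholesterol exporter Abca1 at 40.4 to 250 CPM after LPS (median 149.7) and 216 to 293 CPM after PBS (median 262) (log2 fold change -0.80 ± 0.28, adjusted p = 0.063).

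Glucocorticoid-responsive genes rose in 7 of 11 cases, with 1 lower and a median of 2.14. Zbtb16, a zinc finger factor strongly induced by glucocorticoids in many cells, was among the leading genes. Zbtb16 lay at 48.03 to 172 CPM after LPS (median 131) and 0.2 to 3.31 CPM after PBS (median 2.02) (log2 fold change 5.96 ± 0.34, adjusted p = 4.62e-05). Klf9 and Per1 lay at 36.7 to 156 CPM after LPS (median 81.4) and 0.104 to 12.5 CPM after PBS (median 6.13) (log2 fold change 3.42 ± 0.36, adjusted p = 0.000392) and at 49.2 to 153 CPM after LPS (median 111) and 16.98 to 25.6 CPM after PBS (median 18.5) (log2 fold change 2.23 ± 0.39, adjusted p = 0.00331). The mTORC1 inhibitor Ddit4 and the cell cycle inhibitor Cdkn1a also rose without overlap. Ddit4 lay at 38.8 to 131 CPM after LPS (median 90.5) and 0 to 2.73 CPM after PBS (median 1.72) (log2 fold change 5.82 ± 0.72, adjusted p = 0.000826). Cdkn1a lay at 95.8 to 2445 CPM after LPS (median 206) and 5.86 to 37.97 CPM after PBS (median 14.4) (log2 fold change 4.77 ± 0.72, adjusted p = 0.0018). Fkbp5, a chaperone of the glucocorticoid receptor, lay at 469.5 to 708 CPM after LPS (median 625) and 56.4 to 287 CPM after PBS (median 61.1) (log2 fold change 2.14 ± 0.57, adjusted p = 0.0225). Fkbp5 lost its call without LPS mouse 1, LPS mouse 7, PBS mouse 174 or PBS mouse 177 (log2 fold changes 1.75 to 2.07, adjusted p 0.0571 to 0.0787). The list held exceptions. Annexin A1, Anxa1, fell. Anxa1 lay at 0 to 6.3 CPM after LPS (median 2.47) and 19.9 to 60.04 CPM after PBS (median 37.5) (log2 fold change -3.56 ± 0.51, adjusted p = 0.0015). Tsc22d3, which encodes GILZ, was not called. Tsc22d3 lay at 382 to 828 CPM after LPS (median 532) and 601 to 1047 CPM after PBS (median 681) (log2 fold change -0.52 ± 0.28, adjusted p = 0.198). The receptor gene Nr3c1 lay at 135 to 212 CPM after LPS (median 164) and 164 to 227 CPM after PBS (median 195) (log2 fold change -0.30 ± 0.24, adjusted p = 0.38).

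Of 29 macrophage transcription factors, 6 rose, 3 fell and 20 did not pass, with a median log2 fold change of 0.17. Klf4 and Cebpb rose without overlap. Klf4 lay at 54.3 to 282 CPM after LPS (median 192) and 2.54 to 17.1 CPM after PBS (median 10.9) (log2 fold change 3.92 ± 0.35, adjusted p = 0.00025). Cebpb lay at 326 to 769 CPM after LPS (median 506) and 95.4 to 193 CPM after PBS (median 162.6) (log2 fold change 1.62 ± 0.33, adjusted p = 0.0072). Klf2 went the other way. Klf2 lay at 8.17 to 70.1 CPM after LPS (median 14.5) and 65.7 to 122 CPM after PBS (median 98.9) (log2 fold change -1.99 ± 0.45, adjusted p = 0.0113). Klf2 lost its call without the tdT+ library of LPS mouse 5 (-1.58, adjusted p = 0.0529). Among 13 immediate early genes, 3 rose, 2 fell and 8 did not pass, with a median log2 fold change of 0.052. The AP-1 member Fosl2 lay at 68.4 to 312 CPM after LPS (median 243) and 4.8 to 15.1 CPM after PBS (median 13.4) (log2 fold change 4.07 ± 0.61, adjusted p = 0.00175). In TGF-beta signalling, 3 of 12 genes fell and none rose, with a median of 0.02. The receptor Tgfbr2 and the ligand Bmp2 lay at 69.3 to 219 CPM after LPS (median 153) and 610 to 794 CPM after PBS (median 759) (log2 fold change -2.32 ± 0.26, adjusted p = 0.000512) and at 0 to 2.78 CPM after LPS (median 0) and 27.03 to 60.3 CPM after PBS (median 41.5) (log2 fold change -6.71 ± 1.06, adjusted p = 0.00216). Of 13 cell cycle genes, none rose and Cdk1, Mcm3 and Mcm6 fell, with a median of -0.69. Cdk1 lay at 0 to 4.08 CPM after LPS (median 1.91) and 4.47 to 19.5 CPM after PBS (median 11.6) (log2 fold change -2.69 ± 0.72, adjusted p = 0.0225). Cdk1 lost its call without the tdT+ library of LPS mouse 5, PBS mouse 175 or PBS mouse 177 (log2 fold changes -2.99 to -2.39, adjusted p 0.084 to 0.116).

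The remaining leading genes fell into no list. The cytoskeletal linker Dst lay at 363 to 548 CPM after LPS (median 427) and 11.1 to 26.1 CPM after PBS (median 22.8) (log2 fold change 4.34 ± 0.28, adjusted p = 8.01e-05), and the focal adhesion protein Tns1 at 109 to 342 CPM after LPS (median 202) and 0.195 to 12.3 CPM after PBS (median 5.49) (log2 fold change 5.33 ± 0.38, adjusted p = 0.00013). Edn1, which encodes the vasoconstrictor endothelin-1, was at most 0.0912 CPM after PBS. Edn1 lay at 36.2 to 159 CPM after LPS (median 57.7) and 0 to 0.0912 CPM after PBS (median 0) (log2 fold change 11.44 ± 0.84, adjusted p = 0.000134). The inhibitory receptor Pirb, which binds MHC class I, did not overlap either. Pirb lay at 265 to 2437 CPM after LPS (median 1410) and 87.3 to 114 CPM after PBS (median 90.8) (log2 fold change 3.63 ± 0.30, adjusted p = 0.000196). Among those that fell, Cyp27a1, the sterol 27-hydroxylase, lay at 0 to 10.8 CPM after LPS (median 5.67) and 124 to 208 CPM after PBS (median 164) (log2 fold change -4.74 ± 0.33, adjusted p = 0.00013). The endosomal sodium/proton exchanger Slc9a9 lay at 3.09 to 48.5 CPM after LPS (median 20.2) and 464 to 708 CPM after PBS (median 614) (log2 fold change -4.71 ± 0.38, adjusted p = 0.000196). Chp2 was near 0 in every LPS library. Chp2 lay at 0 to 0.394 CPM after LPS (median 0) and 33.3 to 79.3 CPM after PBS (median 58.8) (log2 fold change -8.52 ± 0.69, adjusted p = 0.000196). The log2 fold changes of Pxdc1, Gpr160, Arhgap19 and Fam234a were -6.21, -3.70, -4.69 and -3.56, with adjusted p between 5.67e-05 and 0.000196, from PBS medians of 145, 179, 310.2 and 232 CPM to LPS medians of 1.77, 16.1, 13.4 and 18.4 CPM.

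Markers of other cells were read in the same libraries. Of 10 neutrophil markers, Ly6g, Retnlg, Ngp and Stfa2l1 were at 0 in all 12 libraries, and S100a8 and Mmp8 rose. S100a8 lay at 7.74 to 2145 CPM after LPS (median 294) and 0 to 0.976 CPM after PBS (median 0) (log2 fold change 11.72 ± 1.25, adjusted p = 0.000414). With the mouse as a replicate block, S100a8 lost its call after the exchange (10.66, adjusted p = 0.0942). The summed level of the list was 210 to 2389 CPM after LPS and 103 to 177.5 CPM after PBS. Of the monocyte markers, Vcan and Hp were among those that rose, Ccr2 fell and Chil3 was at 0, and the sum was 69.8 to 381 CPM after LPS and 132 to 306 CPM after PBS. Of 7 dendritic cell markers, Ccr7 rose, Cd209a fell and Clec9a was at 0, with sums of 43.2 to 192 CPM after LPS and 72.9 to 536 CPM after PBS. No B cell, endothelial or fibroblast marker was called, and their sums stayed at or below 102.6 CPM in every library, with Cldn5 at 0. The 7 T and NK cell markers summed to at most 238 CPM, with Gzma called higher. The microglial markers Gpr34 and Slc2a5 fell and none rose. P2ry12 lay at 31.5 to 782 CPM after LPS (median 92.3) and 446 to 958 CPM after PBS (median 653) (log2 fold change -1.71 ± 0.72, adjusted p = 0.107), with its highest LPS value in the tdT+ library of mouse 5.

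Traces of other brain and blood cells also moved in single genes. Slc1a2 of 5 astrocyte markers and Syt1 of 5 neuronal markers rose, whereas Mbp of 5 oligodendrocyte markers fell. Their sums after LPS were 17.3 to 90.7 CPM, 20.1 to 372.5 CPM and 128 to 419.6 CPM, against 18.3 to 59.3, 6.54 to 102 and 80 to 261 CPM after PBS. No marker of the choroid plexus was called, with at most 34.4 CPM in all. The globin genes Hba-a1 and Hba-a2 rose, and the erythroid sum reached 639 CPM in the tdT- library of LPS mouse 7 against at most 37.9 CPM in the other LPS libraries. Rn18s and Lars2 rose as well. Rn18s lay at 1805 to 8524 CPM after LPS (median 4507) and 89.1 to 166 CPM after PBS (median 135) (log2 fold change 5.13 ± 0.48, adjusted p = 0.000275). Lars2 lay at 877 to 58170 CPM after LPS (median 13760) and 78.5 to 144 CPM after PBS (median 90.6) (log2 fold change 7.92 ± 0.75, adjusted p = 0.000275). The part of residual ribosomal RNA and of the lower totals of the LPS libraries in the results was not tested, except that 1652 genes rose and 1099 fell with all libraries thinned to 2060240 counts.

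The LPS response of the repopulated sdCAMs was next compared with that of other cells in the series, each by an interaction term in 1 fit of 4 groups. The first comparison asked whether it differed from that of MG sorted from the same mice. The difference was called for 133 of 12752 genes (1.04%), with a response higher in sdCAMs for 44 and lower for 89. MG alone had 72 genes higher and 46 lower of 10882 tested. The MG libraries differed among themselves. In CPM without TMM scaling, P2ry12 lay at 8898, 777 and 10650 in PBS mice 174, 175 and 177. Tmem119 lay there at 5832, 12010 and 6528. In LPS mice 1, 5 and 7 P2ry12 lay at 431, 1269 and 1197, and Tmem119 at 3960, 1094 and 1155. The part of this spread in the number of calls was not tested. With the mouse as a replicate block the count of differences from MG fell to 2 genes, Cp and Spp1 (-8.32 and -9.53, adjusted p = 0.0386), and to 0 after the exchange, at which 884 genes had in that limma fit an unadjusted p under 0.05. Cp rose in both cell types, by 3.29 on the log2 scale in sdCAMs and by 11.57 in MG, where it lay at 159 ± 64.05 CPM after LPS and 0.0388 ± 0.0671 CPM after PBS (SD, n = 3). The difference was -8.37 ± 0.83, adjusted p = 0.00193. Spp1, osteopontin, lay at 848 ± 205 CPM after LPS and 0.0647 ± 0.112 CPM after PBS in MG, with a difference of -9.24 ± 1.02, adjusted p = 0.00267. For Fpr1 the difference was -6.71 ± 0.75, adjusted p = 0.00267, and for the metallothionein Mt1 it was 5.19 ± 0.76, adjusted p = 0.0088. The difference of Mt1 lost its call after the exchange (5.25, adjusted p = 0.0956) and without PBS mouse 177 (5.08, adjusted p = 0.0519). Where MG lay near 0 after PBS, the fitted size depends on the prior count. By edgeR on all mouse sums, no member of the interferon, GBP or MHC class I lists was called different. With DESeq2, the response of 4 interferon-stimulated and 3 GBP and immunity GTPase genes was lower in sdCAMs, and without the tdT+ library of LPS mouse 5 that of 1 GBP or immunity GTPase gene. Of the MHC class II list, Cd74, H2-DMb1, H2-Ab1 and H2-Eb1 had a lower response in sdCAMs. These 4 calls were 2 after the exchange or without LPS mouse 1, 1 without LPS mouse 7 or any of the PBS mice, and 0 with the mouse as a replicate block.

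The other comparisons were with sdCAMs of mice that were never depleted. These came from WT and from Ccr2-/- mice with LPS after vehicle and PBS without treatment, 3 libraries each. Mouse line, depletion, tamoxifen and the batch number in the labels differed together, so that their contributions cannot be told apart. Vehicle was given only in the LPS arm of the WT and Ccr2-/- mice, whereas both reporter arms had received BLZ945. In those mice vehicle and LPS cannot be told apart either. Against WT sdCAMs, 1181 of 12703 genes differed (9.3%), with a response higher in the reporter mice for 621 and lower for 560. Without the tdT+ library of LPS mouse 5 the count was 466. In the WT libraries residual ribosomal RNA ran the other way, with Rn18s at 2303 ± 414 CPM after LPS and 5050 ± 1684 CPM after PBS (SD, n = 3), and Rn18s and Lars2 were among the genes with the largest differences (6.21 ± 0.78, adjusted p = 0.00166, and 10.80 ± 1.26, adjusted p = 0.00154). Of the MHC class I pathway, 10 of 18 genes had a lower response in the reporter mice, among them H2-D1 (-2.68 ± 0.59, adjusted p = 0.0164), H2-T23 (-2.32 ± 0.52, adjusted p = 0.0165) and Tap2 (-2.25 ± 0.67, adjusted p = 0.0454). H2-D1 lay at 1151 ± 217 CPM after LPS and 563 ± 178 CPM after PBS in WT sdCAMs. The 10 class I calls were 2 without the tdT+ library of LPS mouse 5, 4 without LPS mouse 7 and 5 without PBS mouse 174. H2-D1 lost its call without that library or LPS mouse 7 (-2.35, adjusted p = 0.0501, and -2.69, adjusted p = 0.0506). Tap2 lost its call without that library (-1.97, adjusted p = 0.122), after the exchange and without any one of the 6 mice (adjusted p 0.0584 to 0.105). Of 12 MHC class II genes 6 had a lower response, and 3 without LPS mouse 7. Of 13 GBP and immunity GTPase genes 3 had one, and 1 without LPS mouse 1, LPS mouse 7, PBS mouse 174 or PBS mouse 177. Of 38 interferon-stimulated genes 5 had one. The count was 1 without the tdT+ library of LPS mouse 5, 2 without LPS mouse 1, LPS mouse 7 or PBS mouse 174 and 3 without PBS mouse 177, but 8 without LPS mouse 5 and 13 with DESeq2. The largest differences otherwise were in genes such as Tlr9 (7.24 ± 0.87, adjusted p = 0.00156) and the mitochondrial elongation factor Gfm2 (3.49 ± 0.45, adjusted p = 0.00166) on the higher side. On the lower side stood Idnk (-4.39 ± 0.61, adjusted p = 0.00287), Jpt1 (-4.70 ± 0.66, adjusted p = 0.00287), Ubl4a (-3.62 ± 0.54, adjusted p = 0.0036) and Med29 (-4.10 ± 0.66, adjusted p = 0.00514).

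The libraries of Ccr2-/- sdCAMs had like levels of ribosomal RNA in both arms, with Rn18s at 421 ± 116 CPM after LPS and 525 ± 62.9 CPM after PBS. Against them, 1942 of 12755 genes differed (15.2%), with a response higher in the reporter mice for 1017 and lower for 925. After the exchange 987 genes differed. The Ccr2-/- sdCAMs alone had 1270 genes higher and 1432 lower of 11355. GBP and immunity GTPase genes rose in 11 of 16 cases there and fell in none, and the response of 12 of 16 was lower in the reporter mice. Tgtp2 lay at 81.8 ± 21 CPM after LPS and 33.5 ± 13.3 CPM after PBS in Ccr2-/- sdCAMs, with a difference of -4.70 ± 0.50, adjusted p = 0.000264. Igtp lay at 367 ± 94.3 CPM after LPS and 116 ± 22.02 CPM after PBS, with a difference of -2.84 ± 0.34, adjusted p = 0.000373. Levels after PBS were of the same order in both lines for Igtp, at 116 and 145 CPM on average, whereas those after LPS were 367 and 66.3 CPM. The CPM of each line were scaled within that line, so levels of different lines are not on one common scale. Of these genes, 11 still differed after the exchange and 10 without the tdT+ library of LPS mouse 5.

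MHC class I and interferon-stimulated genes had a lower response as well. In Ccr2-/- sdCAMs 11 of 18 class I genes rose and none fell, and the response of 11 was lower in the reporter mice. H2-D1 lay at 4472 ± 441 CPM after LPS and 2465 ± 338 CPM after PBS there, with a difference of -2.44 ± 0.27, adjusted p = 0.000289, and those of H2-T23 and Tap2 were -2.42 ± 0.28, adjusted p = 0.00034, and -2.59 ± 0.31, adjusted p = 0.000408. Of 38 interferon-stimulated genes, 24 rose in Ccr2-/- sdCAMs and none fell, and the response of 18 was lower in the reporter mice and of 1 higher. Irf1 lay at 271 ± 72.1 CPM after LPS and 127 ± 38.4 CPM after PBS in Ccr2-/- sdCAMs (-2.21 ± 0.38, adjusted p = 0.00221 for the difference). After the exchange, 9 class I and 13 interferon-stimulated genes still had a lower response, and without the tdT+ library of LPS mouse 5 these were 9 and 11. Of 22 NF-kappaB and feedback genes, the response of 11 was lower in the reporter mice and of 1 higher. After the exchange 7 were lower, and without that library 8. Of 48 subunits of NADH dehydrogenase and ATP synthase, the response of 23 was higher and of 3 lower. After the exchange these were 1 and 1. Against WT sdCAMs 1 subunit was higher and 16 lower, with 4 lower without LPS mouse 7. Without the tdT+ library of LPS mouse 5, 1 subunit was higher and none was lower.

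The response of MHC class II genes was lower in the reporter mice for 6 of 12 and higher for Ifi30, whose call was lost without the tdT+ library of LPS mouse 5, LPS mouse 5, LPS mouse 7 or any of the PBS mice. Cd74 lay at 2420 ± 581 CPM after LPS and 2041 ± 1015 CPM after PBS in Ccr2-/- sdCAMs, with a difference of -3.61 ± 0.59, adjusted p = 0.00185, and H2-DMb1 at 19.6 ± 1.45 CPM after LPS and 108 ± 14.97 CPM after PBS, with a difference of -2.04 ± 0.30, adjusted p = 0.000953. After LPS both lines lay at like levels in CPM scaled within each line, with Cd74 at 2096 CPM and H2-DMb1 at 20.7 CPM on average in the reporter mice. After PBS the reporter mice were higher, at 20580 and 477 CPM. Ciita fell in both lines and was not called different.

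**Figure D5:**
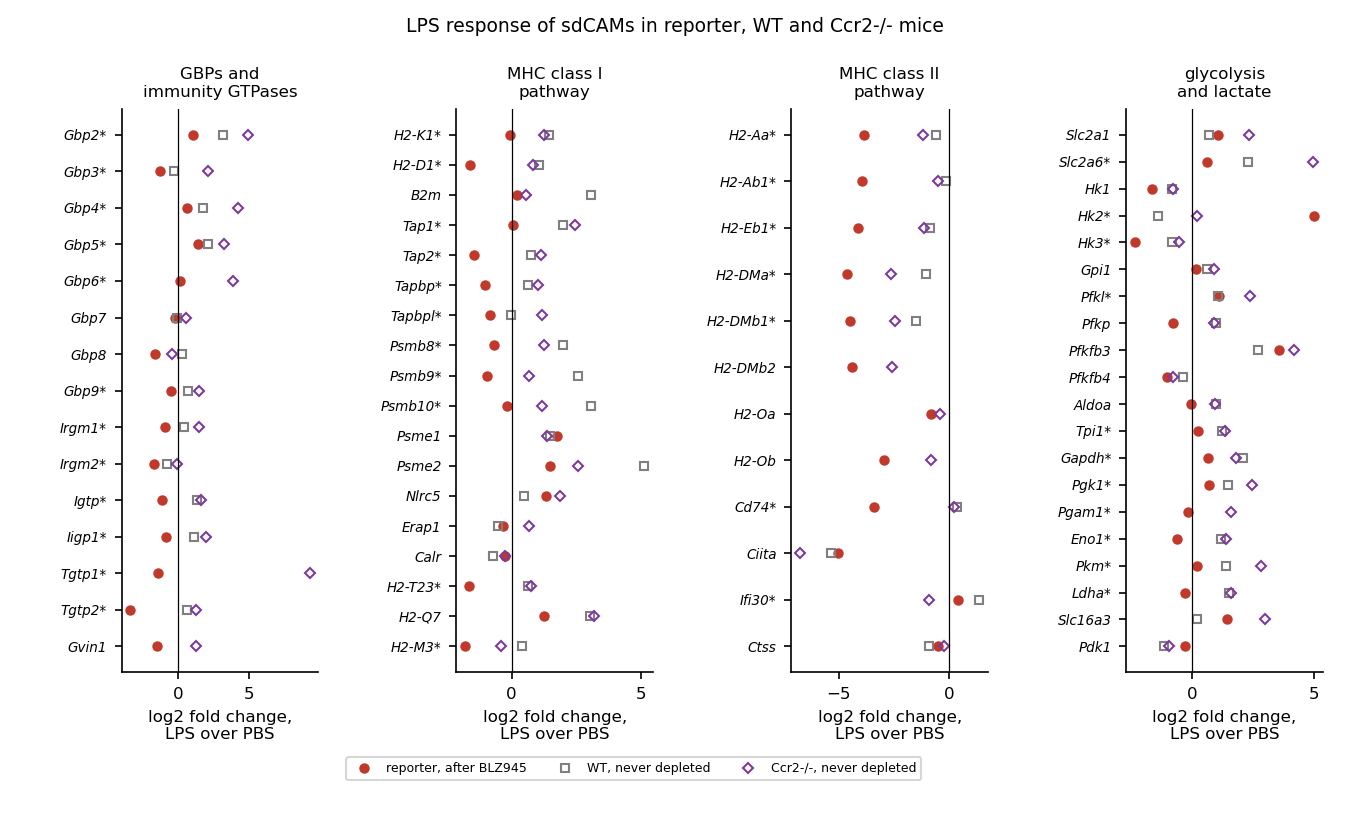
Log2 fold change, LPS over PBS, of the tested genes of 4 lists in sdCAMs of reporter mice after BLZ945 (red circles), of never depleted WT mice (grey squares) and of never depleted Ccr2-/- mice (purple diamonds), with an asterisk where the difference from Ccr2-/- was called. GBP and MHC class I genes lie mostly to the left of the Ccr2-/- values, Ciita lies below -5 in all lines, and Hk2 lies to the right. In never depleted mice the LPS arm had vehicle and the PBS arm no treatment.

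Glycolysis genes rose in 12 of 20 cases in Ccr2-/- sdCAMs, and the response of 10 was lower and of 1, Hk2, higher in the reporter mice. Pkm lay at 546 ± 126 CPM after LPS and 76.1 ± 3.52 CPM after PBS there, with a difference of -2.65 ± 0.29, adjusted p = 0.000299. The phosphodiesterase-like Smpdl3b and the secreted factor Metrnl had differences of -2.80 ± 0.30, adjusted p = 0.000264, and -2.85 ± 0.30, adjusted p = 0.000264. On the higher side, the differences of Zfhx3 and Arglu1 were 3.18 ± 0.30, adjusted p = 9.45e-05, and 2.89 ± 0.29, adjusted p = 0.00018, beside those of Lars2 (8.19 ± 0.68, adjusted p = 6.39e-05) and Rn18s (5.48 ± 0.49, adjusted p = 9.45e-05). Saa3 rose in both lines, by 11.69 and 9.93 on the log2 scale, with a difference of 1.72 ± 1.07, adjusted p = 0.307. Lcn2 rose further in the reporter mice (4.89 ± 1.20, adjusted p = 0.0139), where it was at most 0.983 CPM after PBS, against 11.8 ± 11.3 CPM in Ccr2-/- sdCAMs.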

How the data were processed

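Libraries came from sorted macrophages by SMARTer v4 cDNA amplification and Nextera XT, sequenced as single reads. Per the labels, the authors used bcl2fastq 2.20, STAR 2.7.11a and featureCounts 2.0.8, and DESeq2 1.46.0 for their own tests. The authors deposited unnormalized whole read counts for each gene symbol, and 0 columns stayed unmatched to a library. The strand setting was not given in the sources used here, and the genome build was named ambiguously, so no coordinates come from the counts, and antisense partners cannot be told apart. No molecular identifiers were used, so amplified copies stayed in the counts and depth speaks for counting error only.

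Counts were summed per mouse and tested with edgeR 4.0.16 (glmQLFit and glmQLFTest) in R 4.3.3, with filterByExpr, TMM and two-sided p-values adjusted by Benjamini-Hochberg over all genes tested. Calls required an adjusted p below 0.05 and a change beyond 1 on the log2 scale. The common biological coefficient of variation was 0.559 for mouse sums and 0.686 for 12 separate libraries. Interactions with MG, WT and Ccr2-/- sdCAMs were fitted the same way, and scripts were tested on simulated data first. For Ccr2-/- LPS libraries, whose titles disagree with the cell type entry, the entry was used. The mouse was an alternative block (limma 3.58.1), since MG and sdCAMs share the animal, and their deviations correlated at 0.0156 to 0.127 over 6 mice.

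Named genes were up to 12 higher and 12 lower calls with the smallest p, at least 20 CPM, no overlap and calls under the exchange and with separate libraries. To these came per list up to 6 members with the smallest p and the uncalled members of highest level, Ccr2, and up to 5 differences a direction, of which some are reported. A few genes of the lists enter the counts and sums and are not reported here by name. The members and lists were chosen with earlier results of these data known. Promoters were taken from RefSeq (GRCm38.p6) by symbol, and 9788 of 12548 genes matched. Alternatives were the exchange, separate libraries, block, tdT covariate, DESeq2 1.42.0, size factors, other count filters, thinning, omission of gene classes, of each mouse and of the tdT+ library of LPS mouse 5, plain CPM, and, chosen after seeing the data, either named tdT state alone and, for lower bounds of folds, omission of the tdT- library of LPS mouse 5.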

Additional observations from a re-analysis of the deposited data

Results flagged for a closer look

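Within each condition, a library was singled out when its gap to the nearest of the other 5 passed Dixon's 95% critical value for 6 values. For normally distributed values chance flags about 1 in 20 groups, but CPM are skewed and some lie near 0, so the rate by chance is not known here. Of 326 groups tested, 49 were flagged. For the tdT+ library of LPS mouse 5, the value in CPM stood apart from that of the nearest library for Lyz2 (604 against 1857), Cx3cr1 (1585 against 208), Tlr2 (2057 against 456), Cd83 (216 against 75.6), H2-DMb1 (38.6 against 20.4), H2-DMa (69.5 against 25.4), Fcgr4 (339 against 647), Ctsd (3147 against 619.8), Slc40a1 (43.6 against 4.31), P2ry12 (782 against 98.7), microglia marker sum (11130 against 1345) and sdCAM marker sum (844 against 5466). For the tdT- library of LPS mouse 5, the value in CPM stood apart from that of the nearest library for Lcn2 (27650 against 7749), Cp (10140 against 3635), Ccl24 (164 against 59.5), Ebi3 (903 against 307), Nfkbia (3397 against 1232), B2m (33080 against 4974), Ms4a6c (7973 against 935), Cd68 (1210 against 631), C1qc (5837 against 2694), Sod2 (7909 against 1206), Ftl1 (5690 against 856) and Cdkn1a (2445 against 351). For the tdT- library of LPS mouse 1, the value in CPM stood apart from that of the nearest library for Ccr2 (54.01 against 20.1), Parp14 (699 against 304), H2-Aa (1069 against 398), H2-Ab1 (1591 against 569), Ciita (10.5 against 1.29), Bmp2 (2.78 against 0) and T and NK cells marker sum (238 against 38.7). For the tdT+ library of PBS mouse 174, the value in CPM stood apart from that of the nearest library for Tnfrsf9 (0.400 against 0.0912), Tgtp2 (114 against 57.1), Ms4a6c (694 against 528) and Cdkn1a (37.97 against 17.7). For the tdT- library of PBS mouse 174, the value in CPM stood apart from that of the nearest library for Hp (27.1 against 0), Ccl22 (1.25 against 0.456) and Il1rn (11.5 against 3.996). For the tdT+ library of PBS mouse 175, the value in CPM stood apart from that of the nearest library for Cd36 (634 against 410.3), Ndufs6 (66.99 against 48.9) and neurons marker sum (102 against 33.3). For the tdT- library of PBS mouse 175, the value in CPM stood apart from that of the nearest library for Tlr4 (351 against 279), Acod1 (2.28 against 0) and Edn1 (0.0912 against 0). For the tdT+ library of PBS mouse 177, the value in CPM stood apart from that of the nearest library for Ccl5 (32.5 against 12.7), Slc7a11 (8.78 against 0.638) and S100a8 (0.976 against 0). For the tdT- library of LPS mouse 7, the value in CPM stood apart from that of the nearest library for erythroid cells marker sum (639 against 37.9). For the tdT- library of PBS mouse 177, the value in CPM stood apart from that of the nearest library for Cxcl13 (6.97 against 0.912).

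The LPS response differed between groups, by the interaction term, for 133 genes against reporter MG, 1181 against WT sdCAMs and 1942 against Ccr2-/- sdCAMs. Named genes whose log2 fold change after LPS differed from that of reporter MG were Mt1 (5.19), Lars2 (7.75), Cp (-8.37), Spp1 (-9.24), Fpr1 (-6.71) and Clec4n (-11.39). In MG, Clec4n averaged 3.00 CPM after LPS and 0 CPM after PBS, so the fitted size of its difference depends on the prior count. Mt1 lost this call after the exchange and without PBS mouse 177, and Lars2 without PBS mouse 177 (7.76, adjusted p = 0.0519). Named genes whose log2 fold change after LPS differed from that of WT sdCAMs were Lars2 (10.80), Tlr9 (7.24), Rn18s (6.21), Gfm2 (3.495), Idnk (-4.39), Jpt1 (-4.70), Ubl4a (-3.62) and Med29 (-4.11). Named genes whose log2 fold change after LPS differed from that of Ccr2-/- sdCAMs were Lars2 (8.19), Rn18s (5.48), Zfhx3 (3.18), Arglu1 (2.89), Tgtp2 (-4.70), Metrnl (-2.85), Smpdl3b (-2.80), H2-D1 (-2.44) and Pkm (-2.65). Negative values are lower responses in repopulated reporter sdCAMs. Mouse line, depletion, tamoxifen and batch number differed together in the last 2 comparisons and cannot be told apart. In the never depleted mice of these comparisons only the LPS arm had vehicle. With the mouse as a replicate block 2 genes remained different from MG.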

How the results depend on the processing

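The names of 2 LPS libraries, the tdT+ library of LPS mouse 5 and the small number of mice set the limits here. After the exchange of names, 1210 genes were called higher, and 1187 of them were also called with the names as given, and 985 were lower, of which 967 were shared. In libraries named tdT+ alone the counts were 916 and 707, and with DESeq2 they were 2353 and 1549. Leaving out each mouse in turn gave 1165 to 2038 higher and 803 to 1850 lower. With plain CPM, 610 genes lay above in all 6 LPS libraries. With the mouse as a replicate block, the counts were 1748 higher and 1544 lower, or 1469 and 1287 after the exchange, and the block ended no named call other than Ccl17, Ccl24, Ifitm3, Ndufs6, Atp5mk and S100a8 and differences from MG.

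Against MG, 133 genes differed. The count was 75 after the exchange, 732 with DESeq2, 261 without the tdT+ library of LPS mouse 5, 21 to 279 when each mouse was left out, and 2 with the mouse as a replicate block (0 after the exchange, where limma gave 884 genes at an unadjusted p under 0.05). Against WT sdCAMs it was 2133 with DESeq2, 466 without that library and 358 to 1562 when each mouse was left out. Against Ccr2-/- sdCAMs it was 987 after the exchange and 1438 to 2771 when each mouse was left out. The WT and Ccr2-/- comparisons have no pairing.

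Of 3498 values of named genes recomputed, 3272 kept direction and side of the threshold, 135 lost the call, 70 gained one and 21 changed sign. The sign changed within the range over mice left out for Cd14 (-0.50 to 0.55), Zfp36 (-0.57 to 0.11), H2-K1 (-0.22 to 0.066) and B2m (-0.79 to 0.46), at the values without LPS mouse 5, or without PBS mouse 174 for Zfp36. In libraries named tdT+ alone it changed for Zfp36 (0.12), Ifitm3 (-0.17), B2m (-0.81), Ndufs6 (-0.85), Atp5mk (-0.72) and Nr3c1 (0.052), and in those named tdT- alone for Mertk (-0.35) and H2-K1 (0.37). H2-K1 also changed to 0.056 with separate libraries, 0.023 and 0.022 under the block, 0.049 and 0.060 with the tdT covariate, 0.0076 without the omitted gene classes and 0.10 without the tdT+ library of LPS mouse 5. B2m changed to -0.090 under both block fits. The causes were not tested. Of 1092 list counts, 871 stayed within 1.5 times.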
